A study of Mus musculus with 50 samples.

Results

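Myeloid signalling and effector genes were examined in 50 single hemogenic endothelial cells that had been made in culture from mouse embryonic stem cells (iHECs). The genes were Tyrobp and Fcer1g, which encode adaptor chains of immune receptors, and Lyz2, Mpo, Elane, Prtn3 and Ctsg, which encode lysozyme and granule enzymes. They were picked by symbol, and 6 of the 7 had a row among the 11879 genes of the table. Ctsg had none, so its expression was not analysed here and it enters only through its promoter sequence. Tyrobp was selected on measured values of these same cells: among the 5892 genes above TPM 1 in 20% to 80% of cells it had the largest standard deviation of log2(TPM + 1), at 3.91. The spread of Tyrobp is therefore a description and no finding.

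All 50 cells belonged to 1 group, iR-iHEC, of the strain C57BL/6. Per the study's methods, a doxycycline-inducible Runx1 cassette (iRunx1) had been placed at the Rosa26 locus, clones had been selected with hygromycin B, and how many clones gave these cells is not given in the sources used here. Single cells were sorted at day 11 by the surface phenotype CD31+CD41lowCD45-c-kit+CD201high, with doxycycline present in the culture from day 6, and the cDNA of each was amplified. There was no cell without the cassette, no cell without doxycycline and no second culture named in the labels, so the 50 cells are 1 sample and no test between conditions was possible. Values were TPM, transcript abundances scaled to a common total, which keep no sequencing depth. A gene was counted as present in a cell above TPM 1, and a value of 0 is described only as listed at 0, since the housekeeping genes Hprt and Tbp were themselves listed at 0 in 3 and 13 cells. The number of genes above TPM 1 had a median of 6224 per cell and ran from 2400, in cell 4-6, to 8615, in cell 3-8. Cells are named by the 2 numbers of their titles, which the labels do not explain. The first number took the values 1 to 4, with 11, 14, 13 and 12 cells. The sort markers fitted their labels at the RNA level: Pecam1 (CD31) and Procr (CD201) were present in 50 of 50 cells, Kit in 47, Itga2b (CD41) in 40 and Ptprc (CD45) was listed at 0 in all 50.

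Tyrobp (also called DAP12) and Fcer1g (the common Fc receptor γ chain) are short membrane proteins with an immunoreceptor tyrosine-based activation motif (ITAM). Many activating receptors of myeloid and natural killer cells have no signalling tail of their own and reach the surface and signal through one of these chains, whose ITAM is phosphorylated by Src-family kinases and then binds the kinase Syk. Lysozyme, myeloperoxidase and the serine proteases neutrophil elastase, proteinase 3 and cathepsin G are antimicrobial proteins of granulocytes and monocytes, and the proteases and myeloperoxidase are made early, in granulocyte-monocyte progenitors and promyelocytes. Spi1 encodes PU.1, a transcription factor known to act on many myeloid genes.

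On GRCm38, the assembly that mm10 names, Tyrobp lies at chr7:30413760-30417585 on the plus strand and Fcer1g at chr1:171229572-171234365 on the minus strand. Lyz2 lies at chr10:117277331-117282321, minus strand, and Mpo at chr11:87793581-87804413, plus strand. Prtn3, at chr10:79874476-79883174, and Elane, at chr10:79886247-79888215, are neighbours on the plus strand, with RefSeq starts 6645 bases apart. The RefSeq promoter table (GRCm38.p6) held 6 of the 7 members, and none was held for Tyrobp or for Spi1. Prtn3 and Elane are shown because one of these neighbouring protease genes was present in 12 cells and the other was listed at 0 in every cell, and Fcer1g because it was the member present in most cells. Each stretch runs from base 200 to base 70 before the RefSeq start and touches no annotated exon. Capitals mark GAGGAA, a core of PU.1 sites. The coordinates are chr1:171234419-171234549 (minus strand) for Fcer1g, chr10:79879467-79879597 (plus strand) for Prtn3 and chr10:79886112-79886242 (plus strand) for Elane.
Fcer1g: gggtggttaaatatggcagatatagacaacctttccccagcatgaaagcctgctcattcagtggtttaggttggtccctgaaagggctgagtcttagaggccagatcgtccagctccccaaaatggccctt
Prtn3: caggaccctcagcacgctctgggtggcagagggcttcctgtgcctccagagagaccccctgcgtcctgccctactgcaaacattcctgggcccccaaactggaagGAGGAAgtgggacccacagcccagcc
Elane: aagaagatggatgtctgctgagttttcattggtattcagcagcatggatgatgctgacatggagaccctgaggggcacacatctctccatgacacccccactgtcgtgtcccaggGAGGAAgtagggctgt

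The match began 95 bases before the start in Prtn3 and 85 bases before it in Elane, on the sense strand and followed by gt in both. Over the 250 bases upstream and on both strands, GAGGAA was found in Mpo, Elane, Prtn3 and Ctsg, 4 of the 6 members with a promoter, against 23.3% of all 32851 promoters. The RUNX letters TGTGGT were found in Lyz2 and Ctsg, against 14.1% of promoters. The GATA letters AGATAA and the C/EBP letters TTGCNNAA, held by 9.99% and 9.56% of promoters, were not found in these windows. Matches to different motifs did not overlap, and a match describes the sequence only. Prtn3 and Elane thus held the same core at nearly the same distance, while their values in the cells differed as given further on.

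Of the adaptor chains, Tyrobp was present in 27 of 50 cells (54%, exact Clopper-Pearson 95% interval 39.3% to 68.2%). Its TPM ran from 0 through a median of 2.31 to 1917 in cell 2-6, and it was listed at 0 in the other 23 cells. No cell lay above 0 and at or below TPM 1, the lowest value above 0 being 1.297 in cell 3-5. Of the 27 cells, 8 lay between TPM 1 and 10, 5 between 10 and 100, and 14 above 100. The intervals given here cover counting error over cells only, since amplified copies of 1 molecule were not told apart and the cells were not independent cultures.

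Fcer1g was present in 41 of 50 cells (82%, 68.6% to 91.4%), with TPM from 0 through a median of 25.2 to 2066 in cell 1-4. It was listed at 0 in 7 cells and lay at or below TPM 1 in 2 more, and the 41 cells divided into 13 up to TPM 10, 10 up to 100 and 18 above 100. Over all genes, 53.2% were present in at least 50% of cells, and both chains belonged to that share. Together the chains reached 47 of 50 cells (94%). Hcst, which encodes the related adaptor DAP10 and lies 127 bases beyond the end of Tyrobp on the opposite strand, was present in 18 cells, 11 of them with Tyrobp.

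The share of cells with Tyrobp was 45.5%, 42.9%, 46.2% and 83.3% within first title numbers 1 to 4, so it was higher among the 12 cells of number 4 than in the others. For Fcer1g the shares were 72.7%, 85.7%, 100% and 66.7%, with number 4 the lowest. Without number 4, Tyrobp was present in 44.7% and Fcer1g in 86.8% of 38 cells. What the number stands for was not given, and its part in these shares was not tested.

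**Figure D1:**
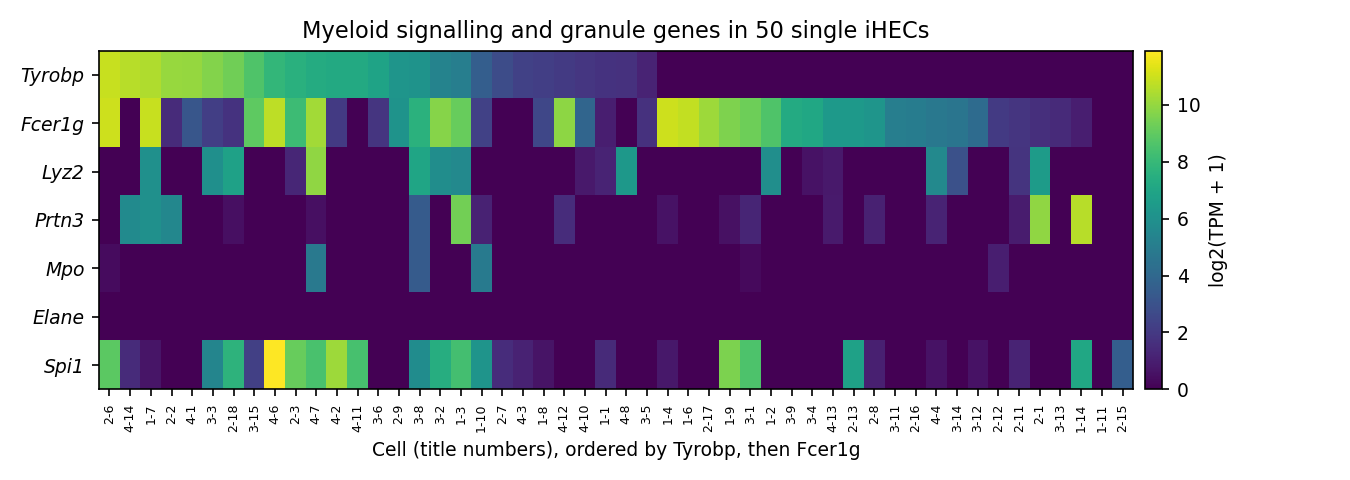
Heat map of log2(TPM + 1) for the 6 members and Spi1 (rows) in each of the 50 cells (columns, named by their title numbers), ordered by Tyrobp and then by Fcer1g. Tyrobp falls to 0 after 27 cells, Fcer1g is high and low on both sides of that point, and Elane is dark throughout.

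Lysozyme and the granule enzymes were present in fewer cells than the adaptor chains. Lyz2 was above TPM 1 in 15 of 50 cells (30%, 17.9% to 44.6%), from 0 through a median of 0 to 988 in cell 4-7, and only 3 cells passed TPM 100. Lyz2 and Lyz1 are near-identical copies, Lyz1 had no row, and how reads were divided between them is not given in the sources used here. Prtn3 was present in 12 cells (24%, 13.1% to 38.2%), with a median of 0 and a top of 1558 in cell 1-14. Most of its level lay in 3 cells, the next being 985 in cell 2-1 and 662 in cell 1-3, after which the highest was 63.0. In the annotation Prtn3 overlaps Plppr3 on the other strand and Mpo overlaps Gm11505, neither of which had a row, and no strand setting was stated for the libraries.

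Mpo was present in 4 cells (8%, 2.22% to 19.2%), at 29.1 in cell 1-10, 26.7 in cell 4-7, 9.55 in cell 3-8 and 1.02 in cell 2-12. Elane was listed at 0 in all 50 cells, and a count of 0 among 50 leaves room for a share of cells above TPM 1 of up to 6% (3 cells), or 7.11% by the exact interval. This limits cells with a value and not cells that express the gene. Over all genes, 5.14% were never above TPM 1. Prtn3 thus stood at TPM 1558 in a cell in which its neighbour Elane was listed at 0.

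At least 1 of these enzymes was present in 23 cells (46%, 31.8% to 60.7%), 1 alone in 16 cells, 2 in 6 cells and 3 in 1 cell. The cell with 3 was cell 3-8, which also had the most genes above TPM 1. It held Tyrobp at 68.5, Fcer1g at 191, Lyz2 at 126, Mpo at 9.55 and Prtn3 at 9.71, with Spi1 at 54.1. Cell 4-7 held Tyrobp at 162, Fcer1g at 1213, Lyz2 at 988 and Mpo at 26.7, with Prtn3 at 0.410. By contrast cell 1-14, with the highest Prtn3, held no other member above TPM 1. Lyz2 and Prtn3 were present together in 5 cells, and their Spearman's rho over cells was 0.258 (0.113 to 0.507 within the 4 first title numbers). Lyz2 had a rho of 0.349 with the count of genes measured per cell, whose part in its shares was not tested.

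Counting all 6 members, 2 cells held none, 16 held 1, 19 held 2, 8 held 3, 4 held 4 and 1 held 5. The 2 cells without a member, 1-11 and 2-15, had Hcst at TPM 136 and 129, and Hcst passed 100 in 5 cells in all. Tyrobp, Fcer1g and an enzyme came together in 11 cells.

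Tyrobp and Fcer1g had a rank correlation near 0 from cell to cell. Both were present in 21 cells, Tyrobp alone in 6, Fcer1g alone in 20 and neither in 3. Fcer1g was thus found in 21 of 27 cells with Tyrobp (77.8%, 57.7% to 91.4%) and in 20 of 23 without it (87.0%, 66.4% to 97.2%), and these intervals overlap widely. At TPM 10 the counts were 10, 9, 18 and 13 cells, and at TPM 100 they were 6, 8, 12 and 24. Spearman's rho of the chains over the 50 cells was 0.0036, and -0.061 to 0.074 within the first title numbers. All correlations here are descriptions over cells of 1 sample that share a protocol, a TPM total and a common set of rows, and they differ in how many genes were measured per cell.

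Where both chains were present, their levels also lay far apart. The log2 ratio of Tyrobp to Fcer1g had a median of -0.39 over the 21 cells and ran from -8.26 to 9.26. In 7 of the 21 cells the chains were within 2-fold of each other, in 9 they were over 10-fold apart, and Tyrobp was the higher in 8. Both passed TPM 100 in 6 cells, among them cell 2-6 with Tyrobp at 1917 and Fcer1g at 2042, and cell 1-7 with 1448 and 1900. In contrast, cell 4-14 had Tyrobp at 1574 with Fcer1g listed at 0, and cell 1-4 had Fcer1g at 2066 with Tyrobp listed at 0.

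**Figure D2:**
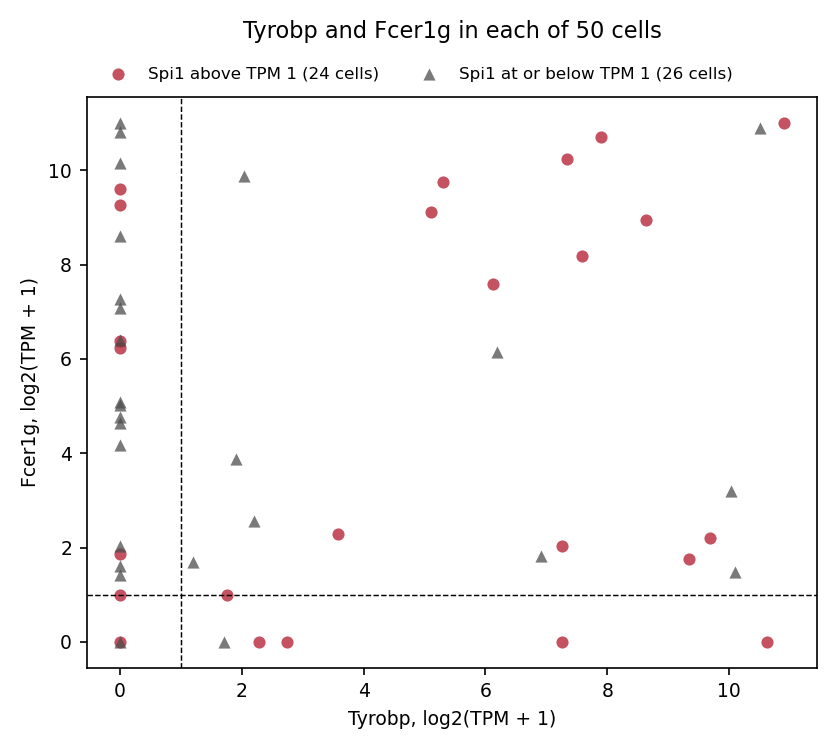
Fcer1g against Tyrobp in each of the 50 cells, both as log2(TPM + 1), with circles for the 24 cells with Spi1 above TPM 1 and triangles for the other 26; dashed lines mark TPM 1. Cells fill all 4 fields (21 with both, 6 with Tyrobp alone, 20 with Fcer1g alone, 3 with neither), with no trend between the chains.

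The enzymes were spread over cells with and without the chains. Lyz2 was present in 10 of 27 cells with Tyrobp and in 5 of 23 without it, Prtn3 in 7 and 5, and Mpo in 3 and 1. An enzyme was found in 14 of 27 cells with Tyrobp (51.9%, 31.95% to 71.3%) and in 9 of 23 without it (39.1%, 19.7% to 61.5%). At TPM 10 the same counts were 10 of 19 and 5 of 31. Their rho with Tyrobp was 0.136 for Lyz2 and 0.037 for Prtn3, and Lyz2 ran from -0.523 to 0.505 within the first title numbers. For Fcer1g the enzymes were found in 19 of 41 cells with it and in 4 of 9 without it, at rho 0.105 with Lyz2 and 0.112 with Prtn3. At TPM 1 the counting intervals with and without a chain overlapped for every one of these pairs.

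Spi1, whose row bears the older symbol Sfpi1, had a higher rho with Tyrobp than any member had, although the differences were not tested. It was present in 24 cells (48%, 33.7% to 62.6%), with TPM from 0 through a median of 0.648 to 3843 in cell 4-6. It passed TPM 10 in 17 cells and TPM 100 in 13, and its SD of log2(TPM + 1), 3.77, ranked 5 of the 5892 genes. Spi1 was present in 17 of 27 cells with Tyrobp (63.0%, 42.4% to 80.6%) and in 7 of 23 without it (30.4%, 13.2% to 52.9%). At TPM 10 it was present in 12 of 19 cells with Tyrobp and in 5 of 31 without it (63.2%, 38.4% to 83.7%, and 16.1%, 5.45% to 33.7%). At TPM 100 it was present in 7 of 14 and in 6 of 36 (50%, 23.04% to 77.0%, and 16.7%, 6.37% to 32.8%). The counting intervals overlapped for values above 0, at TPM 1 and at TPM 100, and not at TPM 10. They cover counting error over cells of 1 sample and are no test of Spi1 against Tyrobp. No share of all genes that part in this way is given, so nothing is drawn from the 1 level.

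The rho of Spi1 with Tyrobp was 0.398, rank 42 among 10113 genes, and 0.240 to 0.541 within the first title numbers. Given the number of genes above TPM 1 per cell, the partial rho was 0.448, rank 5. Cell 4-6, which had the highest Spi1 and the fewest genes, was left out in a further calculation, and the rho was then 0.376, rank 111. Spi1 and Fcer1g had a rho of 0.159, with Spi1 in 17 of 41 cells with Fcer1g and in 7 of 9 without it. The order of these shares turned with the level, at 10 of 28 and 7 of 22 cells at TPM 10 and 8 of 18 and 5 of 32 at TPM 100. Tyrobp, Fcer1g and Spi1 came together in 12 cells. Tyrobp and Spi1 were both among the 5 genes of largest spread, so the pair was not an independent choice.

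Receptors that pair with Tyrobp were present in few cells. Of 18 such genes 7 had a row, and 5 of those, Trem2, Trem3, Pilrb1, Pilrb2 and Cd300lb, were listed at 0 in all cells, as were 4.34% of all genes. Clec5a, a C-type lectin that signals through Tyrobp, was present in 2 cells and Trem1, a receptor that amplifies inflammation, in 1. These came to 2 cells in all, both with Tyrobp, so the chain was present in 27 cells and one of these partners in 2. The other 11 partners had no row.

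Of the receptors that pair with Fcer1g, 6 of 14 had a row, and 2 were present in at least 50% of cells (53.2% of all genes). Fcgr3, the low-affinity activating IgG receptor that needs this chain, was present in 33 cells at a median TPM of 49.7 and a highest value of 1080. It was found in 27 of 41 cells with Fcer1g and in 6 of 9 without it, and its rho with Fcer1g was 0.252, against 0.044 with Tyrobp. At TPM 100, Fcgr3 was found in 9 of 18 cells with Fcer1g and in 7 of 32 without it. Fcgr3 was found in 12 of the 15 cells with Lyz2 (80%, 51.9% to 95.7%) and in 21 of the 35 without it (60%, 42.1% to 76.1%), and the intervals overlap. Csf2rb, the common β chain of the receptors for interleukin-3, interleukin-5 and GM-CSF, was present in 49 cells at a median of 131. Its rho with Fcer1g was -0.059. The others, Fcgr1, Fcgr4, Pira2 and Clec4e, were never above TPM 1, as were 5.14% of all genes.

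Genes of the signalling proteins behind the ITAM ranged from nearly every cell to none. Of 31 genes with a row, 12 were present in at least 50% of cells, against 53.2% of all genes, and 2, Blnk among them, were listed at 0 throughout (4.34% of all genes). Bcl10, which links ITAM receptors to NF-κB, was present in 49 cells, and the Src-family kinases Lyn and Fyn in 48 each. Syk, the kinase that binds the phosphorylated motif, was present in 28 cells at a median of 3.47, 14 of them among the 27 cells with Tyrobp and 23 among the 41 with Fcer1g. The 23 genes tested had a median rho of 0.039 with Tyrobp, beside 0.030 for all genes.

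Of 13 inhibitory receptors and phosphatases, which act against ITAM signals, 5 were present in at least 50% of cells (53.2% of all genes). Pecam1 was in 50 cells, the inhibitory receptor Lilrb4a (row Lilrb4) in 46 at a median of 72.3, and Inpp5d, the lipid phosphatase SHIP1, in 42. Their rho with Tyrobp was -0.085, -0.0088 and 0.2003. Bcl10, Lyn, Fyn, Pecam1 and Lilrb4a were in nearly every cell, so their presence in cells with and without Tyrobp was bound to follow.

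Beyond the members, 12 further granule genes had a row, and 2 were present in at least 50% of cells (53.2% of all genes). These were Ctsc, the protease that activates granule serine proteases, in 28 cells, and Gstm1, a glutathione transferase, in 26, followed by Srgn, the proteoglycan that packs granule enzymes, in 14. Ms4a3, Cebpe, S100a9 and Prss57 were listed at 0 in all cells (4.34% of all genes). Ctsc was present in 18 of 27 cells with Tyrobp and in 10 of 23 without it, and its rho was 0.022.

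Among 20 myeloid transcription factors with a row, 8 were present in at least 50% of cells (53.2% of all genes), led by Cebpd in 47, and by Cebpg and Runx1 in 43 each. Runx1, the induced factor, had a median TPM of 132 and a rho of -0.052 with Tyrobp. Cebpa, which drives granulocyte-monocyte commitment, was present in 1 cell, and Myb, Gata1 and Cebpe were listed at 0. The 14 factors tested had a median rho of 0.015 with Tyrobp, and Spi1's value of 0.398 was the highest.

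Markers of mature myeloid cells were present in few cells for most of the list. Of 22 genes with a row, 10 were listed at 0 in all 50 cells, against 4.34% of all genes, among them Itgam (CD11b), Adgre1 (F4/80), Cx3cr1, Ccr2, Ly6c2, Mpeg1 and C1qa, and 2 were present in at least 50% of cells (53.2% of all genes). Csf1r, the receptor that defines the macrophage lineage, was present in 3 cells, against 49 for Csf2rb, 43 for its copy Csf2rb2 and 24 for Csf2ra. The lysosomal protein Cd68 was present in 22 cells and the mannose receptor Mrc1 in 14, up to TPM 192.5 and 291.8. Csf2rb and Csf2rb2 are close copies, so reads could have been divided between them. The summed TPM of the list ran from 21.2 to 879 with a median of 228, and its rho was -0.025 with Tyrobp and -0.084 with Fcer1g. Of the phagocyte oxidase, Cyba was in 50 cells and Rac2 in 10, while the catalytic subunit Cybb was listed at 0 in all.

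**Figure D3:**
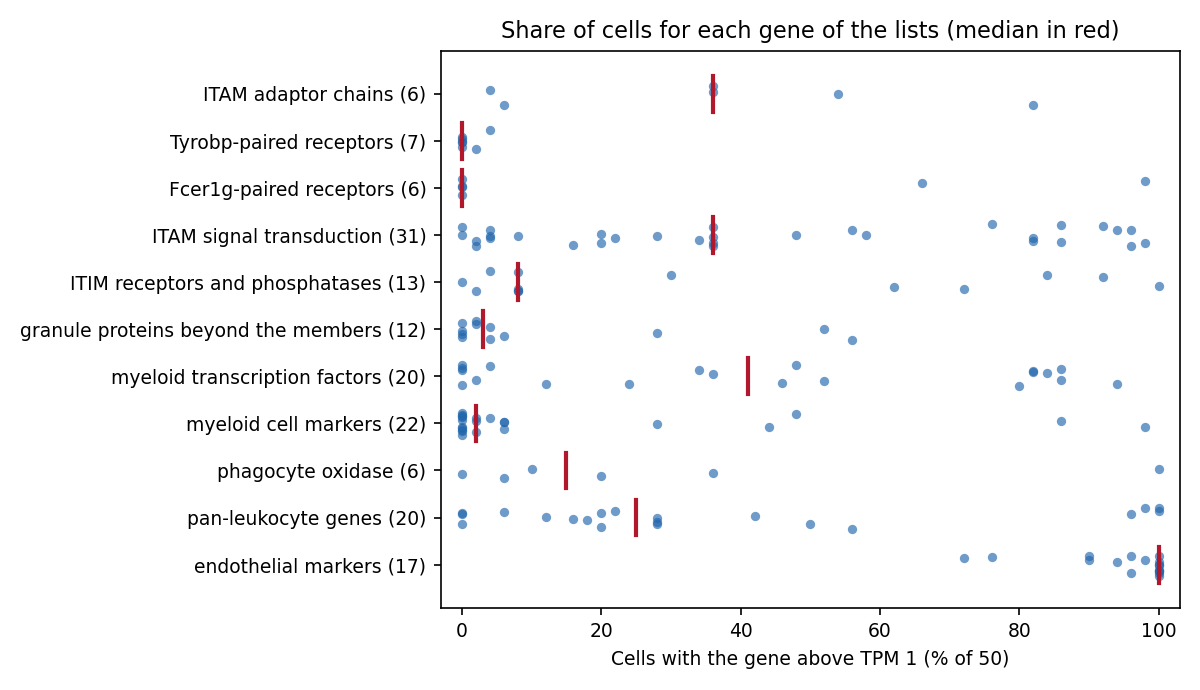
Share of the 50 cells above TPM 1 (x axis, %) for each gene with a row (points) in 11 gene lists (y axis, number of genes in brackets), with the median of each list as a red bar; points are spread vertically only so that they can be seen. Tyrobp-paired receptors lie at 0% to 4%, while the chains themselves stand at 54% and 82% and endothelial markers at 72% to 100%.

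Pan-leukocyte genes were mixed. Arhgdib and Gmfg, regulators of the cytoskeleton in blood cells, were present in 50 cells and Lcp1 (L-plastin) in 49, while Ptprc, Cd48 and Spn were listed at 0 in all. Of the 20 genes, 6 were present in at least 50% of cells (53.2% of all genes). Plek, a protein kinase C substrate of platelets and leukocytes, was the member of this list with a rho past 0.4 with Tyrobp: it was present in 11 of 27 cells with Tyrobp and in 3 of 23 without it, at a rho of 0.457 (-0.041 to 0.610 within the first title numbers). Ptprcap, Rac2, Vav1 and Cd37, chosen after their values were seen, had a rho with Tyrobp of 0.366, 0.320, 0.336 and 0.316. They were present in 6, 9, 9 and 7 cells with Tyrobp and in 0, 1, 2 and 1 without it. Others of the list went the other way, with Cd53 at -0.132 (4 and 6 cells), Gmfg at -0.120, Arhgdib at -0.091 and Was at -0.041, and Coro1a was present in 10 cells with Tyrobp and 11 without it. Over the 16 genes tested the median rho was 0.092, beside 0.030 for all genes, and 12 were above 0, against 58.0% of all genes.

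Markers of other blood lineages were next compared with the chains. Of 12 megakaryocyte genes 5 were present in at least 50% of cells (53.2% of all genes), led by Itgb3 in 46, Itga2b in 40 and Vwf in 33. Itga2b encodes CD41, by which the cells had been sorted. Gp1ba was present in 7 cells and Gp9 in 3, and Ppbp was listed at 0. The rho of the summed level of the list was 0.244 with Tyrobp and 0.196 with Fcer1g. Plek, described above, also stood on this list with its rho of 0.457 with Tyrobp, and Pf4 (platelet factor 4), named after its values were seen, was present in 17 cells with a rho of 0.388 with Fcer1g and 0.082 with Tyrobp. Of 7 erythroid genes none was in 50% of cells, Epor leading with 8 cells, Hbb-y and Hbb-bh1 with 4 each, and the summed level had a rho of 0.225 with Tyrobp and -0.153 with Fcer1g. Of 4 genes of mast cells and basophils, which use Fcer1g in their IgE receptor, Hdc was present in 2 cells. Cpa3, Prg2 and Il1rl1 were present in none (5.14% of all genes). Of 8 lymphoid genes 2 were present in at least 10% of cells, as were 10114 of all 11879 genes. These were Cd79b in 18 cells and Lck in 16, with rho of 0.301 and 0.239 with Tyrobp, and Cd247 was in 3. Of the mesenchymal genes Col1a2 and Pdgfra were present in 2 cells each. The other 4 with a row were never above TPM 1 (5.14% of all genes), and pluripotency genes had no row.

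Genes of cell division were also compared with the chains. Cdk1 was present in 47 cells, Ccna2 in 32 and Ube2c in 28, and the summed level of 10 genes ran from 19.99 to 8951 TPM. Its rho was -0.068 with Tyrobp and 0.198 with Fcer1g, so neither chain followed it closely.

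Endothelial genes were lower in cells with more Fcer1g. All 17 were present in at least 50% of cells (53.2% of all genes), with Cdh5, Pecam1 and Esam in 50, and their summed TPM ran from 750 in cell 4-6 through a median of 7253 to 14393. With Fcer1g the rho of this sum was -0.462, and all 17 genes had a rho below 0, against 56.9% of all genes, led by Kdr, the receptor of VEGF, at -0.416 and Tie1 at -0.378. With Tyrobp the rho of the sum was -0.181 and 11 of 17 genes were below 0, and the difference between the chains was not tested. The list was singled out after its value was seen: over the 17 lists other than the adaptors with a value, the rho of the sum with Fcer1g ran from -0.462 to 0.218, with -0.153 the next lowest. Over all genes, 0.514% had a rho of -0.4 or less with Fcer1g.

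This relation of Fcer1g held its direction within each first title number but not its size. The rho was -0.327, -0.616, -0.165 and -0.954 in the 11, 14, 13 and 12 cells of numbers 1 to 4, and -0.358 without number 4. Of the 17 genes, 10, 17, 12 and 17 had a rho below 0 within numbers 1 to 4, and 15 without number 3. Given the genes above TPM 1 per cell it was -0.466, and without cell 4-6 it was -0.437. TPM values of a cell share a total, and its part in this relation was not tested.

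**Figure D4:**
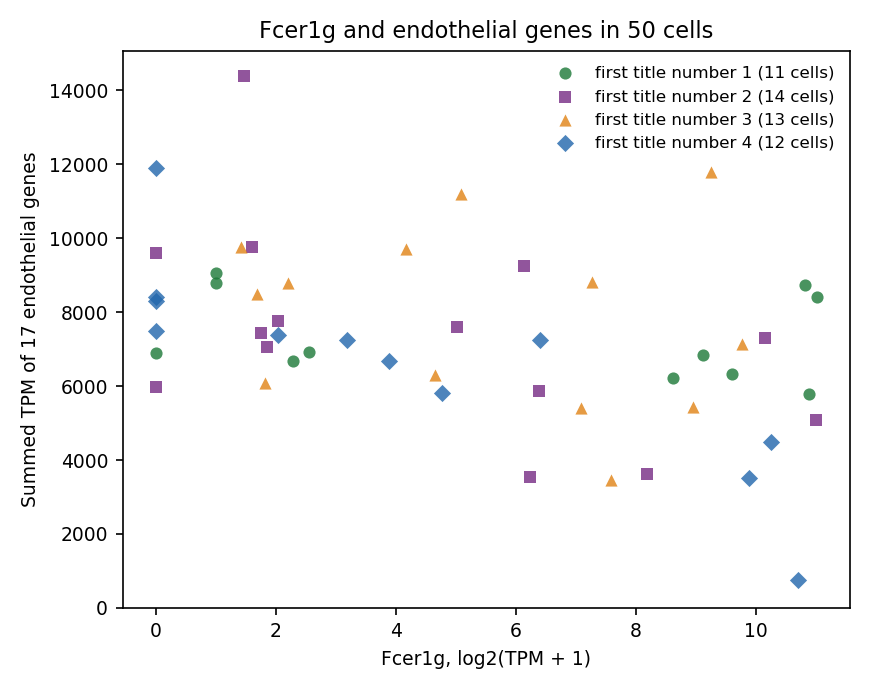
Summed TPM of 17 endothelial genes (y axis, TPM, from 0) against Fcer1g as log2(TPM + 1) (x axis) in the 50 cells, with a symbol for each first title number. The sum is lower in cells with more Fcer1g (rho -0.462), most clearly among the 12 cells of number 4 (rho -0.954).

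The genes that tracked Tyrobp were then ranked over all 10113 other genes present in at least 10% of cells. A rho of 0.4 or more was reached by 40 genes (0.396%) and one of -0.4 or less by 11 (0.109%). Over the 5892 genes present in 20% to 80% of cells, each taken as the anchor in turn, the median was 68 genes at 0.4 or more, with a 5th to 95th percentile range of 22 to 197, so Tyrobp had fewer than the median gene. At -0.4 or less the median was 8 genes and the 5th to 95th percentile range 2 to 28. The highest rho of Tyrobp, 0.616, lay within the 5th to 95th percentile range of these anchors, 0.504 to 0.668. Of all genes 58.0% had a rho above 0, and the rho of Tyrobp itself with the count of genes measured per cell was 0.268.

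Highest was Xpc, the DNA damage sensor of nucleotide excision repair, at 0.616, present in 17 of 27 cells with Tyrobp and in 4 of 23 without it. It was followed by Itfg2 at 0.540 (17 and 2 cells), Nfs1, the cysteine desulfurase of iron-sulfur cluster assembly, at 0.518 (19 and 8), and Tcea2, a transcription elongation factor, at 0.513 (21 and 4). Cep290, a protein of the ciliary transition zone, was present in 10 cells with Tyrobp and in none without it, at 0.482.

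The next were BC026590 (0.477), Vps13a (0.469), Plek (0.457), Slc7a6 (0.455), Ddt (0.447) and Wdr92 (0.447). The ranks from 12 to 20 were held by 2810403D21Rik, Zcchc7, Zbtb38, 9030617O03Rik, Mif4gd, Klhdc9, Cct3, Immp2l and Brd7, between 0.443 and 0.424. Plek was the 1 gene of these 20 that stood on the lists of blood cell genes. Of the 20 genes 13 were present in 25 cells or fewer, and only Cct3, a subunit of the TRiC chaperonin, was present in all 50.

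The ranking was loosely held. Of the 20 genes, 15 had a rho above 0 within each of the 4 first title numbers, and 12 were among the top 20 by partial rho. The 20 were chosen over these same cells, so a shared sign within the numbers is no independent check. With 1 title number left out, 10, 5, 7 and 6 of them were among the top 20 for numbers 1 to 4. The number of genes at 0.4 or more was 308 without number 4, 125 without number 3, 71 without number 1 and 60 without number 2, beside 40 in all cells, and it was 69 without cell 4-6. The partial rho left 19 genes.

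At the other end stood Cxx1b at -0.532, Ppp1r11, an inhibitor of protein phosphatase 1, at -0.522, Itm2b, a membrane protein processed to a secreted peptide, at -0.486, and Bri3 at -0.466. Dnm1l, the GTPase of mitochondrial fission, followed at -0.433, then Dnajb4 (-0.422), Snx4 (-0.422) and Pde4b, a phosphodiesterase that breaks down cAMP, at -0.417. All 8 had a rho below 0 within each first title number. They were chosen as the lowest over these same cells, so this is no independent check. Unlike most of the leading positive genes, these were widely present: 7 of the 8 were in 46 cells or more, so they differed in level and not in presence, and Dnajb4 was in 13 cells with Tyrobp and 17 without it.

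**Figure D5:**
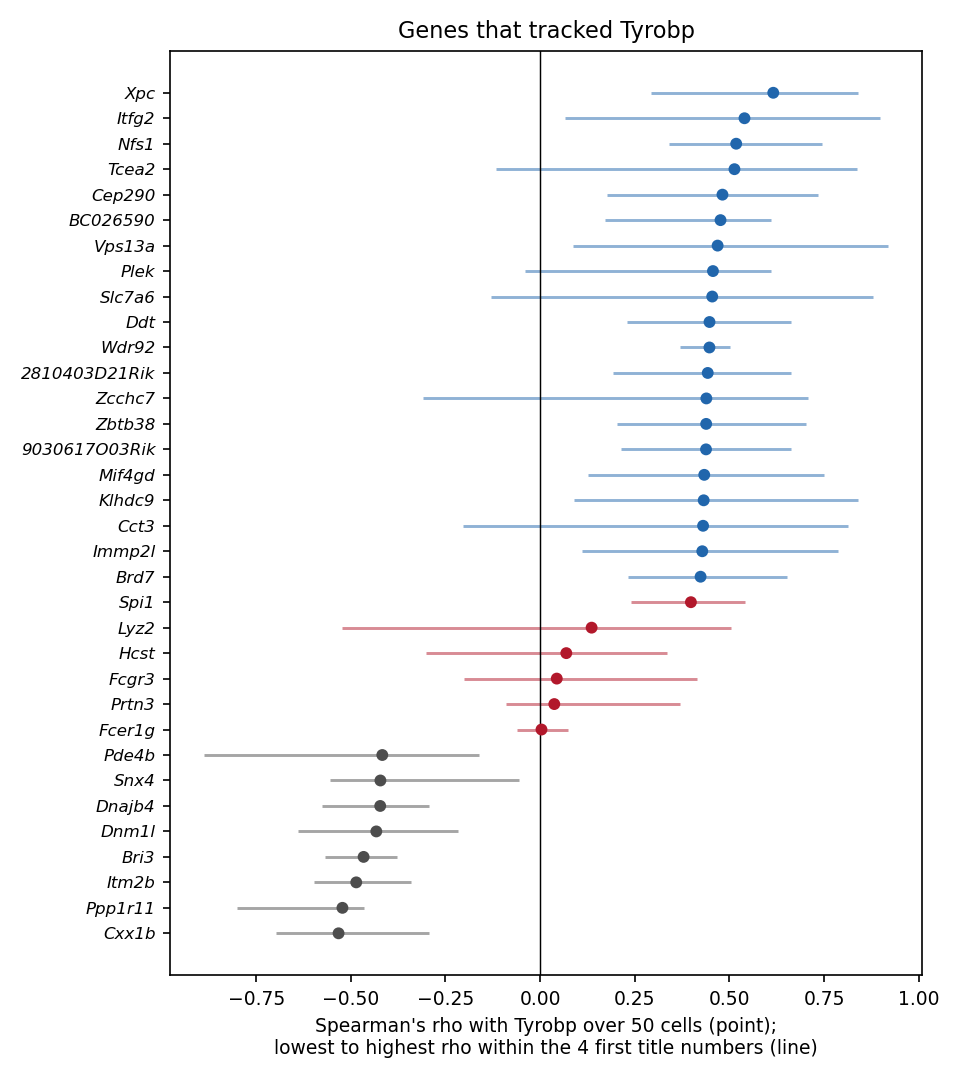
Spearman's rho with Tyrobp over 50 cells (points) for the 20 highest genes (blue), Spi1 and related genes (red) and the 8 lowest genes (grey), with lines from the lowest to the highest rho within the 4 first title numbers. Xpc leads at 0.616, Spi1 stands at 0.398 with its whole line above 0, and Fcer1g lies at 0.0036.

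The genes with the highest rho with Fcer1g were listed in the same way. At 0.4 or more stood 18 genes (0.178%). Highest were Tspan8, a tetraspanin, at 0.532, the kinase Vrk1 at 0.486, Mcrs1 at 0.481, Fxyd7, a regulator of the sodium pump, at 0.473, and 4930404N11Rik at 0.468. With Tyrobp the same 5 genes had rho from -0.295 to 0.221. Lowest with Fcer1g were Dnaja3 at -0.553, Vangl1 at -0.533 and Vamp2 at -0.521, named after their values were seen.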

How the data were processed

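Expression was measured in 50 single mouse cells of 1 group. Per the study's methods and the submitters' processing notes, cDNA was amplified with a whole-transcriptome kit, reads were aligned to mm10 with HISAT2 2.1.0, and SAMtools 0.1.19, bcl2fastq and StringTie 1.3.4 were also used. The deposited values are TPM, which the authors obtained from StringTie for each gene in each cell. Different sequencers are named by the series text and by the paper, and the rule by which rows were kept is not given in the sources used here. TPM keeps no depth, so the precision of single values is unknown.

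The members and all gene lists were chosen with earlier results of these data known. Of 254 list symbols 196 had a row, 4 of them through a RefSeq synonym (Spi1 as Sfpi1). A gene was present above TPM 1. Shares were given with exact Clopper-Pearson 95% intervals and a floor of 3 cells for a count of 0. Spearman's rho was computed over cells for 10114 genes present in at least 10% of cells, also as partial rho given the genes above TPM 1 per cell and within first title numbers. The rho calculation was tested on simulated data. SDs used log2(TPM + 1). Coordinates came from GENCODE M21 (GRCm38) and promoters from RefSeq (GRCm38.p6). With 1 sample no test or p-value was given. No cell was left out, cells were not clustered and no doublet caller was run.

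Named were the 6 members, the 20 genes with the highest and the 8 with the lowest rho with Tyrobp, the 5 with the highest rho with Fcer1g, from each list the 3 genes in most cells and any with a rho of 0.4 or more or -0.4 or less with Tyrobp, and Ptprc, Runx1 and Spi1. Any other gene, such as those listed at 0, was named after its values were seen. A few genes that these rules would name are not reported here. Alternatives were TPM above 0, 5, 10 or 100, Pearson's r with pseudocounts of 1 and 0.1, partial rho, other gene filters, each first title number left out, cells of fewer than 5000 genes left out, and rescaling without 83 ribosomal protein rows. Calculations used Python 3.11.15, numpy 2.4.6, pandas 2.3.3, scipy 1.17.1 and matplotlib 3.10.9.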

Additional observations from a re-analysis of the deposited data

How the results depend on the processing

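Of 83 values under alternative settings, 63 stayed close to the main value (a share within its exact interval, a count of genes within 1.5 times, a rho within the SD of the 4 within-number values) while 20 did not. The rho of Tyrobp and Fcer1g and the median rho of the transcription factors, both near 0, changed sign in some settings (-0.036 for the chains without cell 4-6, -0.0097 for the factors by partial rho). At TPM above 5, the share of cells with Fcer1g was 58% and with both chains 22%. At TPM above 10, the shares were 38% for Tyrobp, 56% for Fcer1g, 30% for any enzyme and 20% for both chains. At TPM above 100 they were 28%, 36%, 12% and 12%. Leaving out each first title number in turn gave 44.7% to 58.3% for Tyrobp, 75.7% to 86.8% for Fcer1g, 43.6% to 48.7% for any enzyme and 39.5% to 44.4% for both chains. In the same settings the rho of Tyrobp and Fcer1g was -0.055 to 0.076, the rho of Tyrobp and Spi1 0.352 to 0.440, the median rho of the myeloid transcription factors with Tyrobp -0.0039 to 0.104, and the number of genes with a rho of 0.4 or more with Tyrobp 60 to 308. That number was 19 by partial rho, and 120 without the 7 cells of fewer than 5000 genes, where the rho of the chains was 0.120. Without cell 4-6, a setting chosen after seeing the data, it was 69. The causes of these shifts were not tested, and for settings with fewer cells no counts of other anchor genes stand beside those of Tyrobp. No paired analysis was possible because all cells belonged to 1 group. Without read depth, a gene listed at 0 cannot be told from one missed in amplification, and with 50 cells a gene present in fewer than 6% of cells could be missed altogether.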

Other observations

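Genes beside the adaptor chains on the chromosome were read out as well, as values only. Within 50 kb of Tyrobp 3 genes had a row. Nfkbid, a nuclear inhibitor of NF-κB that lies 4147 bases away, was present in 18 cells with a rho of 0.325 with Tyrobp. Hcst, 127 bases away, was present in 18 cells with a rho of 0.069, and Aplp1, 17397 bases away, in 6 cells with a rho of -0.074. Within 50 kb of Fcer1g 9 genes had a row, of which 8 were present in at least 10% of cells, and the lowest rho with Fcer1g was -0.204, that of Pcp4l1.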
